A study of Homo sapiens with 12 samples.

Results

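MYC and 50 genes of ribosome biogenesis were followed in human cells from which the transcription elongation factor SPT6 or PAF1 was removed. The 51 genes were taken by symbol from a list of names chosen with earlier results of these data known. Each of the 51 genes matched 1 of the 60666 human gene rows of the deposited count table. They cover the box C/D and box H/ACA snoRNP proteins, the factors of early and late small-subunit and of large-subunit assembly, RNA polymerase I and its factors, RNase P/MRP proteins, nucleolar helicases and MYC itself. All 51 passed the filter on low counts, which left 20791 genes to be tested.

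The cells were DLD-1, a human colorectal adenocarcinoma line that expresses the plant receptor OsTIR1 throughout. In SPT6-AID cells SPT6, and in PAF1-AID cells PAF1, carries an auxin-inducible degron, a tag through which OsTIR1 sends the protein for destruction when auxin is present. There were 6 groups of 2 poly(A)-selected RNA-seq libraries: SPT6-AID OsTIR1 cells after 0, 2 and 6 h in 500 µM auxin, and PAF1-AID OsTIR1 cells after 0, 2 and 6 h in 500 µM auxin, with the 0 h cells as the baseline of each line. SPT6-AID libraries are numbered 1 and 2, and PAF1-AID libraries 3 and 4. The labels do not say whether these came from separate cultures, so the spread that the p-values measure is that between libraries and may be technical. They do not say whether each line is a clone. Every group carries OsTIR1 and a degron, and no untagged cells in auxin were among the samples, so loss of the protein and exposure to auxin cannot be told apart.

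Ribosome biogenesis begins in the nucleolus, where RNA polymerase I transcribes a long precursor rRNA. Small nucleolar RNPs modify the precursor, and a succession of assembly factors, helicases and nucleases folds and cleaves it into the small and large subunits. MYC is a transcription factor that binds E-box sequences with its partner MAX, and genes of ribosome biogenesis are among its best known targets. SPT6 is a histone chaperone that accompanies elongating RNA polymerase II, and PAF1 is a subunit of the PAF1 complex, which also acts in elongation.

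Total counts ran from 31957953 to 115904780 per library, and the 51 genes together took 0.953% to 1.23% of the human counts. Values are human counts scaled by TMM to a common library size (CPM), and changes are log2 fold changes ± SE from edgeR's quasi-likelihood test, adjusted by Benjamini-Hochberg over the 20791 genes, with calls at an adjusted p under 0.05. The epithelial markers EPCAM (778 to 1080 CPM) and CDH1 (322 to 602 CPM) were present in every library, whereas CDX1 was at 0 in all 12. KRT8, KRT18, KRT20, CDX2 and ELF3 were also present in every library. VIL1, at or below 0.239 CPM, and LGALS4, at or below 0.605 CPM, were near absent. Summed markers of fibroblasts, blood cells and endothelium stayed at or below 3.33 CPM in every library. The degron acts on protein, so the mRNAs of the targets do not check the depletion: SUPT6H, which encodes SPT6, had 549 and 557 CPM after 6 h in SPT6-AID cells, against 496 and 501 CPM at 0 h.

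MYC mRNA was lower after SPT6 depletion, and its lowest values were at 2 h. In SPT6-AID libraries 1 and 2 it had 82.0 and 146 CPM at 0 h, 29.7 and 51.4 CPM at 2 h, and 53.9 and 65.8 CPM at 6 h. Neither the 2 h nor the 6 h libraries overlapped those at 0 h, and the 0 h libraries themselves differed more than those of any later time. A bulk library cannot tell fewer cells with the mRNA from less of it per cell, here or below. The change was -1.49 ± 0.31 at 2 h, which did not pass the adjustment (edgeR, adjusted p = 0.0777), and -0.93 ± 0.31 at 6 h, which did (edgeR, adjusted p = 0.0485). At 2 h the MYC change passed with the DESeq2 Wald test (-1.48, adjusted p = 0.000331) and in edgeR without a filter on low counts (-1.46, adjusted p = 4.09e-13). With library number added to the model, MYC passed at 2 and 6 h (-1.48 and -0.87, edgeR, adjusted p = 6.96e-07 and 9.815e-06). The labels do not say that a number marks a shared culture. Whether the 2 h change was called thus depended on the test, the filter and the model. Between 2 and 6 h the MYC change was 0.56 ± 0.31 (edgeR, adjusted p = 0.273).

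In PAF1-AID libraries 3 and 4 MYC had 94.3 and 110.3 CPM at 0 h, 65.4 and 91.8 CPM at 2 h, and 74.5 and 84.5 CPM at 6 h. All treated libraries lay below those at 0 h, but the changes of -0.38 ± 0.30 at 2 h and -0.36 ± 0.30 at 6 h did not pass the test (edgeR, adjusted p = 0.984 and 0.507). The SPT6-AID response minus the PAF1-AID response was -1.11 ± 0.43 at 2 h (edgeR, adjusted p = 1) and -0.57 ± 0.43 at 6 h (edgeR, adjusted p = 0.633), neither of which passed. Without a filter on low counts the 2 h difference for MYC did pass (-1.08, edgeR, adjusted p = 0.0156), and DESeq2 did not call it (adjusted p = 1).

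The MYC call at 6 h of SPT6 depletion was close to the threshold. It was lost when any 1 of 9 of the 12 libraries was left out, and remained without SPT6-AID 0h replicate 1, SPT6-AID 2h replicate 1 or SPT6-AID 2h replicate 2. Without SPT6-AID 0h replicate 2 the MYC change was -0.45 (edgeR, adjusted p = 0.346). Per kilobase of transcript, MYC had rank 25 from the top among the 51 genes at 0 h of SPT6-AID cells, rank 43 at 2 h and rank 27 at 6 h, and in PAF1-AID cells ranks 26, 32 and 29 at the same times, given without a test.

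**Figure D1:**
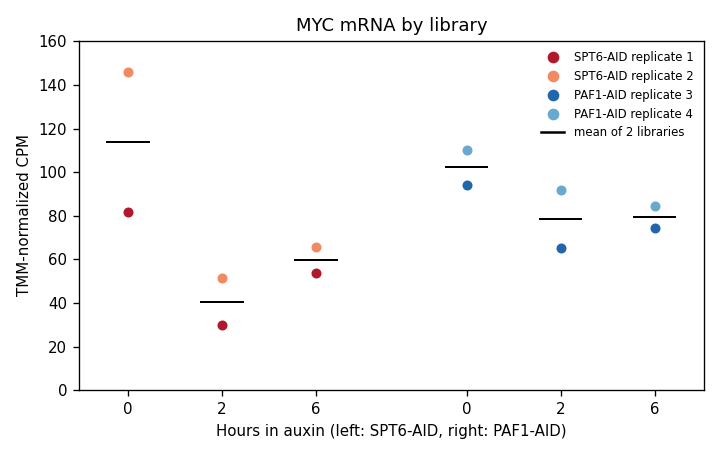
MYC mRNA in TMM-normalized CPM (linear axis from 0) against hours in auxin, with SPT6-AID cells on the left and PAF1-AID cells on the right. Points are single libraries and lines the mean of 2; the SPT6-AID libraries at 2 h, at 29.7 and 51.4 CPM, are the lowest 2 of the 12.

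After 2 h no ribosome biogenesis gene was called in either line. In SPT6-AID cells edgeR called 0 of the 51 genes at 2 h, against 0.548% of all genes tested in either direction. An unadjusted p under 0.05 was found for 5 of the 51 (MYC, UTP23, URB2, POLR1B and RPP38, all lower) and 1542 of all 20791. DESeq2 called 3 of the 51, all lower, and 509 of all 20791. In PAF1-AID cells edgeR called 0 at 2 h, against 0.149% of all genes in either direction. There 3 of the 51 had an unadjusted p under 0.05 (UTP15, UTP23 and RPP38, all lower), as had 1537 of all 20791. DESeq2 called 1 of the 51 and 270 of all 20791. The groups did not overlap for 12 genes lower and 0 higher in SPT6-AID cells, where 17.9% and 14.7% of all genes did so. In PAF1-AID cells they did not overlap for 8 genes lower and 7 higher, where 18.6% and 17.2% of all genes did so. The difference between the lines at 2 h was called for 0 of the 51 by edgeR, against 0.0337% of all genes. MYC was the 1 gene of the 51 at an unadjusted p under 0.05, beside 526 of all 20791. DESeq2 called 0 of the 51 and 57 of all 20791.

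After 6 h of SPT6 depletion 25 of the 51 genes had fallen and none had risen. Those 25 are 49% of the genes, whereas 16.4% of all genes tested fell and 8.76% rose. No member was higher at an unadjusted p under 0.05 or by DESeq2, which called 25 lower. Of all 20791 genes DESeq2 called 5440 in either direction. The median change of the 51 was -0.48, beside 0.04 over all genes tested. The libraries of the groups did not overlap for 38 genes lower and for 1 higher, NHP2, where 31% and 27.7% of all genes did so.

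After 6 h of PAF1 depletion 4 of the 51 had fallen: RPP38, UTP15, NAT10 and UTP18. That is 7.84%, close to the 6.7% of all genes tested that fell, and 0 were called higher, where 4.2% of all genes were, with NOB1 the 1 gene higher at an unadjusted p under 0.05 and 0 by DESeq2. Lower at an unadjusted p under 0.05 were 8 genes, the 4 called and UTP20, WDR43, WDR75 and BYSL, and DESeq2 called 6 lower. Of all 20791 genes 5308 had an unadjusted p under 0.05 and DESeq2 called 2980, both in either direction. The median change was -0.08, beside 0.02 over all genes. The groups did not overlap for 15 genes lower and 14 higher, where 27.1% and 28.1% of all genes did so.

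Between 2 and 6 h 18 of the 51 genes (35.3%) fell in SPT6-AID cells, where 10.4% of all genes tested did, and the median change of the 51 was -0.41, beside 0.02 over all genes. In PAF1-AID cells 2 fell over the same interval, UTP15 and NAT10, where 0.587% of all genes did. Leaving out SPT6-AID 2h replicate 2 brought the 18 to 9 and leaving out SPT6-AID 6h replicate 2 brought it to 10. The 2 in PAF1-AID cells became 0 when any 1 of 10 of the 12 libraries was left out.

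The SPT6 count at 6 h rested in part on the baseline: it was 15 without SPT6-AID 0h replicate 2, and 19 to 25 without any other library. In all 12 leave-outs 15 genes stayed called, namely UTP15, UTP23, WDR36, WDR43, NOP16, URB2, GRWD1, NOB1, POLR1B, POLR1C, POLR1E, RRN3, RPP38, DDX10 and NAT10. With total fly counts as library sizes the median of all genes at 6 h moved to -0.39 in SPT6-AID and -0.37 in PAF1-AID cells, and relative to it the median of the 51 genes was -0.51 and -0.08, against -0.52 and -0.10 with TMM. Fly counts were 5.36% and 6.25% of the total in SPT6-AID cells at 6 h, against 4.30% and 4.29% at 0 h, and mitochondrial counts were 3.85% and 3.92% of human counts, against 2.39% and 2.45%. Summed blood-cell markers were 1.82 to 2.04 CPM at 6 h, against 0.357 to 0.691 CPM at 0 h, and summed endothelial markers 2.02 to 2.41 CPM, against 0.392 to 1.25 CPM. Of these lists CD14, CD79A and PECAM1 were called higher at 6 h, PECAM1 reaching at most 1.22 CPM, while CD3E, CDH5 and KDR stayed at or below 0.0652 CPM in every library. The part of these markers and of mitochondrial counts in the changes was not tested.

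**Figure D2:**
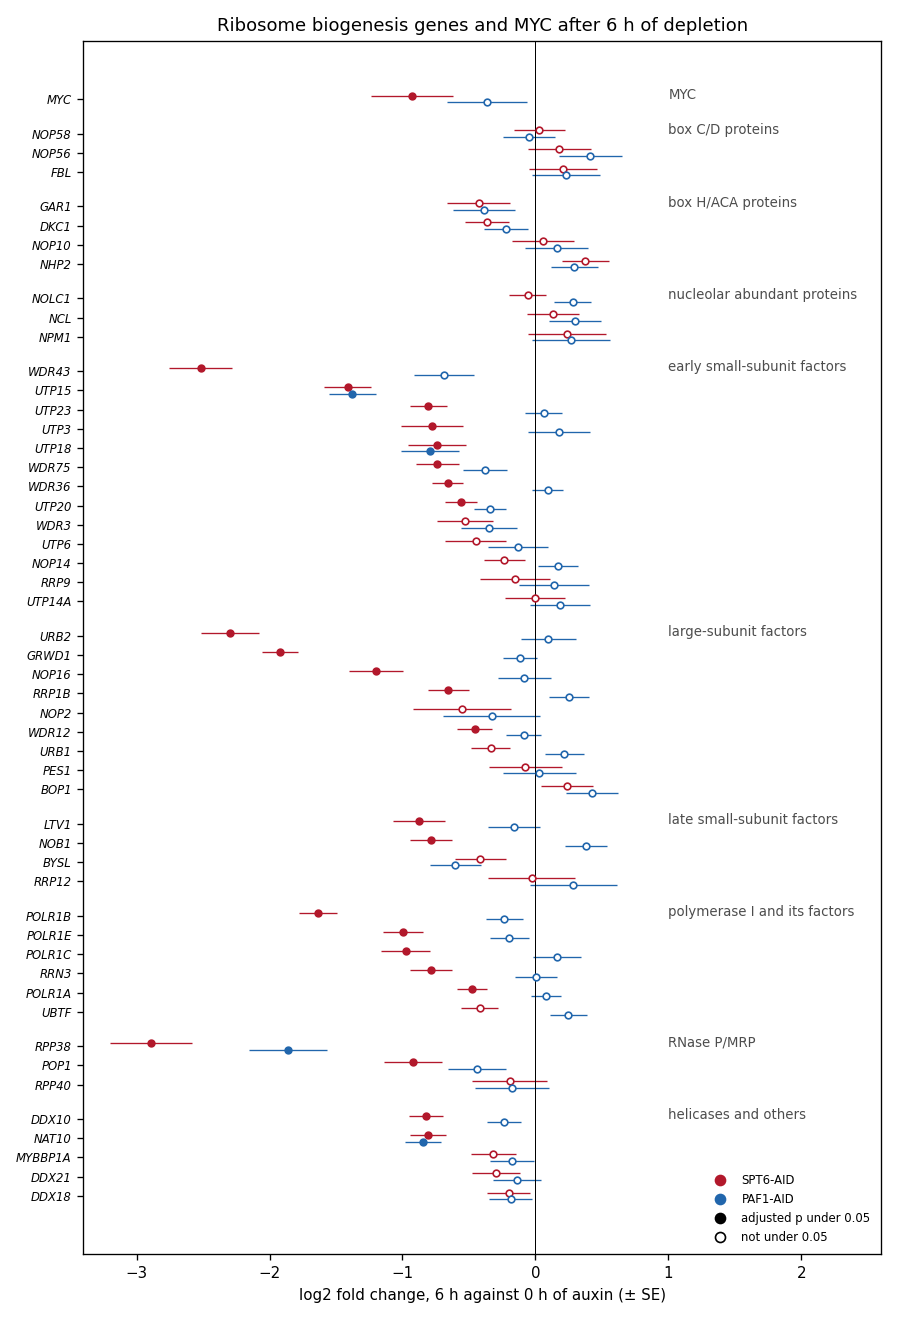
Log2 fold change at 6 h against 0 h of auxin (± SE) of each of the 51 genes, grouped by role down the page, for SPT6-AID and PAF1-AID cells; filled points passed an adjusted p under 0.05. The SPT6-AID points run from -2.89 (RPP38) to 0.38 (NHP2), with 5 of 6 polymerase I genes and 0 of 3 box C/D genes filled. Over all genes tested 16.4% fell in SPT6-AID cells at 6 h, and a count of 0 among 3 genes is near that share.

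RNA polymerase I and its factors fell in SPT6-AID cells, 5 of 6 at 6 h, while 0 of 6 were called in PAF1-AID cells. Over all genes tested 16.4% fell at 6 h in SPT6-AID cells and 6.7% in PAF1-AID cells. A count of 0 among so few genes is near the PAF1-AID share. POLR1B, the second-largest polymerase I subunit (GRCh38 chr2:112541915-112577150, plus strand), had 104 and 119 CPM at 0 h, 79.5 and 91.8 CPM at 2 h, and 39.5 and 32.2 CPM at 6 h in SPT6-AID cells. In PAF1-AID cells it had 90.5 and 103 CPM at 0 h, 78.6 and 80.5 CPM at 2 h, and 82.2 and 82.1 CPM at 6 h. The SPT6-AID values stepped down at each time with no overlap, with a change of -1.63 ± 0.14 at 6 h (edgeR, adjusted p = 0.000122), whereas the PAF1-AID change was -0.24 ± 0.14 (edgeR, adjusted p = 0.326).

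POLR1C, a subunit shared with RNA polymerase III, had 23.8 and 30.6 CPM at 6 h in SPT6-AID cells, against 49.0 and 57.7 CPM at 0 h, a change of -0.98 ± 0.18 (edgeR, adjusted p = 0.0033). POLR1E, which forms a dimer within polymerase I, had 26.1 and 30.4 CPM at 6 h, against 50.1 and 62.3 CPM at 0 h, a change of -0.99 ± 0.15 (edgeR, adjusted p = 0.00112). For both genes the treated libraries lay below both baseline libraries, while in PAF1-AID cells POLR1C changed by 0.16 ± 0.18 and POLR1E by -0.20 ± 0.15. RRN3, the initiation factor that brings polymerase I to the promoter, fell by 0.79, and the largest subunit POLR1A fell by 0.48. UBTF, the factor that occupies active rDNA, changed by -0.42 ± 0.14 and narrowly missed the threshold in SPT6-AID cells (edgeR, adjusted p = 0.0513), with 0.25 ± 0.14 in PAF1-AID cells. RRN3 has pseudogene copies, so its counts are uncertain.

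Of the early small-subunit factors, which bind the precursor rRNA as it is made, 8 of 13 fell at 6 h in SPT6-AID cells and 2 of 13 in PAF1-AID cells. Over all genes tested the shares that fell were 16.4% and 6.7%. WDR43, a subunit of the complex that first binds the precursor (GRCh38 chr2:28894643-28948222, plus strand), had 147 and 172 CPM at 0 h, 108 and 127 CPM at 2 h, and 29.4 and 26.2 CPM at 6 h in SPT6-AID cells. In PAF1-AID cells it had 129 and 178 CPM at 0 h, 103 and 135 CPM at 2 h, and 75.5 and 115 CPM at 6 h. Both lines were lower at 6 h without overlap, with changes of -2.52 ± 0.24 in SPT6-AID cells (edgeR, adjusted p = 0.00014) and -0.69 ± 0.23 in PAF1-AID cells, which did not pass the test (edgeR, adjusted p = 0.0799).

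UTP15, a partner of WDR43 in the same complex (GRCh38 chr5:73565443-73583377, plus strand), was low in both lines. It had 56.0 and 60.3 CPM at 0 h, 48.6 and 50.03 CPM at 2 h, and 24.2 and 19.5 CPM at 6 h in SPT6-AID cells. PAF1-AID cells had 63.0 and 63.4 CPM at 0 h, 45.3 and 49.0 CPM at 2 h, and 19.9 and 28.8 CPM at 6 h. The groups stepped down without overlap in each line, and the 6 h changes were of like size, -1.41 ± 0.18 in SPT6-AID cells (edgeR, adjusted p = 0.000444) and -1.38 ± 0.18 in PAF1-AID cells (edgeR, adjusted p = 0.00219). Their difference was -0.03 ± 0.25 (edgeR, adjusted p = 0.984). UTP15 alone of the 4 PAF1-AID calls was made in all 12 leave-outs.

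UTP18, a subunit of another early complex, also fell in both lines. It had 56.5 and 72.5 CPM at 6 h in SPT6-AID cells, against 101 and 115 CPM at 0 h, a change of -0.74 ± 0.22 (edgeR, adjusted p = 0.031). In PAF1-AID cells UTP18 had 50.8 and 74.1 CPM at 6 h, against 92.3 and 124 CPM at 0 h, a change of -0.79 ± 0.22 (edgeR, adjusted p = 0.0439). The groups did not overlap in either line, but the PAF1-AID call was lost when any 1 of 9 of the 12 libraries was left out. WDR36, from the same early complex as UTP18, fell in SPT6-AID cells (-0.66 ± 0.12; edgeR, adjusted p = 0.0026), with 0.09 ± 0.12 in PAF1-AID cells.

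UTP23, a small factor of early processing, had 15.9 and 16.2 CPM at 6 h in SPT6-AID cells, against 28.5 and 27.5 CPM at 0 h, and 29.7 and 35.1 CPM at 6 h in PAF1-AID cells, against 29.3 and 32.8 CPM at 0 h. The SPT6-AID groups did not overlap, with -0.81 ± 0.14 (edgeR, adjusted p = 0.00226), and the PAF1-AID groups did. UTP3 (-0.78), UTP20 (-0.56) and WDR75 (-0.74) fell too. The 5 early factors not called in SPT6-AID cells changed by -0.53 (WDR3), -0.45 (UTP6), -0.24 (NOP14, which bridges other early factors), -0.16 (RRP9, a protein that binds the box C/D snoRNA of early cleavage) and 0.00 (UTP14A, a helicase cofactor). UTP14A has a retrogene copy, so its reads may be split.

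Of the 9 large-subunit factors 5 fell at 6 h in SPT6-AID cells and 0 were called in PAF1-AID cells. Over all genes 16.4% and 6.7% fell, so the PAF1-AID count is near that share. GRWD1, a histone-binding protein and chaperone of a large-subunit ribosomal protein (GRCh38 chr19:48445773-48457022, plus strand), had 109 and 110.4 CPM at 0 h, 83.7 and 99.5 CPM at 2 h, and 31.1 and 26.8 CPM at 6 h in SPT6-AID cells. In PAF1-AID cells it had 98.4 and 111 CPM at 0 h, 102 and 106 CPM at 2 h, and 93.1 and 100.2 CPM at 6 h. The SPT6-AID libraries at 6 h were the lowest of all 12 and the baseline pair nearly equal, for a change of -1.92 ± 0.13 (edgeR, adjusted p = 6e-05). The PAF1-AID groups overlapped, with -0.11 ± 0.13 (edgeR, adjusted p = 0.647).

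URB2, a nucleolar factor of large-subunit maturation (GRCh38 chr1:229626234-229660199, plus strand), had 57.4 and 69.2 CPM at 0 h, 37.8 and 48.6 CPM at 2 h, and 15.5 and 10.2 CPM at 6 h in SPT6-AID cells. In PAF1-AID cells it had 46.2 and 56.2 CPM at 0 h, 42.5 and 47.4 CPM at 2 h, and 52.3 and 57.2 CPM at 6 h. URB2 stepped down without overlap in SPT6-AID cells, to -2.30 ± 0.22 at 6 h (edgeR, adjusted p = 0.00014), while the PAF1-AID groups overlapped, with 0.10 ± 0.21 (edgeR, adjusted p = 0.83).

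NOP16, a nucleolar large-subunit factor, had 24.3 and 25.1 CPM at 6 h in SPT6-AID cells, against 50.5 and 62.9 CPM at 0 h, and fell by 1.2 ± 0.2 (edgeR, adjusted p = 0.00197), with -0.08 ± 0.20 in PAF1-AID cells. RRP1B, a nucleolar protein that also binds a protein phosphatase, had 117 and 122 CPM at 6 h in SPT6-AID cells, against 175 and 200.2 CPM at 0 h, and fell by 0.65 ± 0.15 (edgeR, adjusted p = 0.00996). The groups did not overlap for either gene. In PAF1-AID cells RRP1B was 199 and 238 CPM at 6 h, against 170 and 198 CPM at 0 h, a change of 0.25 ± 0.15 (edgeR, adjusted p = 0.337).

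The trimeric complex of BOP1, PES1 and WDR12, which acts on the large-subunit precursor, had 1 of its 3 members called at 6 h. With 3 genes this cannot be told from the 16.4% of all genes that fell in SPT6-AID cells. In SPT6-AID cells WDR12 fell by 0.46 ± 0.13 (edgeR, adjusted p = 0.0291), while PES1 changed by -0.08 ± 0.27 and BOP1 by 0.24 ± 0.19, neither called. The WDR12 call was lost when some single libraries were left out, with changes of -0.48 to -0.42. In PAF1-AID cells BOP1 had 137 and 177 CPM at 6 h, against 97.5 and 130.1 CPM at 0 h, a change of 0.43 ± 0.19 without overlap that did not pass the test (edgeR, adjusted p = 0.201). NOP2, an rRNA methyltransferase, had 1.135 to 3.12 CPM over the 12 libraries, and 54.4% of its annotated exonic bases are shared with another gene on the same strand, so its values are uncertain.

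RPP38, a protein subunit of RNase P and RNase MRP (GRCh38 chr10:15097180-15139818, plus strand), had the largest fall of the 51 in each line at 6 h. It had 22.7 and 26.1 CPM at 0 h, 10.6 and 14.1 CPM at 2 h, and 3.98 and 2.55 CPM at 6 h in SPT6-AID cells. In PAF1-AID cells RPP38 had 22.2 and 27.9 CPM at 0 h, 8.76 and 11.3 CPM at 2 h, and 5.22 and 8.56 CPM at 6 h. No groups overlapped within a line, and the 6 h changes were -2.89 ± 0.31 in SPT6-AID cells (edgeR, adjusted p = 0.000225) and -1.86 ± 0.29 in PAF1-AID cells (edgeR, adjusted p = 0.00419). Their difference of -1.03 ± 0.41 did not pass the adjustment (edgeR, adjusted p = 0.232). NMT2 on the opposite strand shares 19.6% of the exonic bases of RPP38, and the strand setting of the counting was not given in the sources used here. The PAF1-AID calls of RPP38 and NAT10 were lost without PAF1-AID 6h replicate 3, where the 4 calls became 1.

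POP1, the largest protein of the same particles, had 25.8 and 37.3 CPM at 6 h in SPT6-AID cells, against 49.9 and 69.5 CPM at 0 h, and fell by 0.92 ± 0.22 (edgeR, adjusted p = 0.0112). In PAF1-AID cells its change of -0.44 ± 0.22 did not pass the test (edgeR, adjusted p = 0.238). RPP40, another subunit, had overlapping groups in both lines, with -0.19 ± 0.28 in SPT6-AID and -0.18 ± 0.28 in PAF1-AID cells.

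Among the late small-subunit factors, 2 of 4 fell in SPT6-AID cells and 0 of 4 were called in PAF1-AID cells. Over all genes 16.4% and 6.7% fell, so the PAF1-AID count is near that share. NOB1, the nuclease that makes the last cut of the small-subunit rRNA, had 67.5 and 72.4 CPM at 6 h in SPT6-AID cells, against 112 and 128 CPM at 0 h. In PAF1-AID cells NOB1 had 134 and 141 CPM at 6 h, against 89.8 and 122 CPM at 0 h. The changes were -0.78 ± 0.16 in SPT6-AID cells (edgeR, adjusted p = 0.00503) and 0.38 ± 0.16 in PAF1-AID cells, where NOB1 was not called (edgeR, adjusted p = 0.159). Fly scaling moved the median of all genes in PAF1-AID cells at 6 h from 0.02 to -0.37. No direction is therefore given for NOB1 in that line. An antisense gene shares 20.2% of the exonic bases of NOB1.

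LTV1, which takes part in export of the small subunit, fell by 0.88 ± 0.20 in SPT6-AID cells (edgeR, adjusted p = 0.00917) and changed by -0.16 ± 0.20 in PAF1-AID cells. A gene on the same strand shares 27.7% of its exonic bases. BYSL, a factor of late small-subunit maturation, had -0.42 ± 0.19 in SPT6-AID and -0.60 ± 0.19 in PAF1-AID cells, neither called (edgeR, adjusted p = 0.145 and 0.0712). RRP12, an export factor, had -0.03 ± 0.33 and 0.29 ± 0.33.

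The helicases and other nucleolar enzymes were split. NAT10, the acetyltransferase of small-subunit rRNA (GRCh38 chr11:34105602-34147670, plus strand), had 99.2 and 120.2 CPM at 0 h, 99.6 and 123 CPM at 2 h, and 62.8 and 62.3 CPM at 6 h in SPT6-AID cells. PAF1-AID cells had 85.5 and 91.2 CPM at 0 h, 85.0 and 85.0 CPM at 2 h, and 49.99 and 48.4 CPM at 6 h. In both lines the 2 h libraries were near the baseline and the 6 h libraries below it, with -0.81 ± 0.14 in SPT6-AID cells (edgeR, adjusted p = 0.00185) and -0.84 ± 0.14 in PAF1-AID cells (edgeR, adjusted p = 0.00452). The difference between the lines was 0.03 ± 0.19 (edgeR, adjusted p = 0.979).

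DDX10, a helicase of early small-subunit assembly, had 46.3 and 45.0 CPM at 6 h in SPT6-AID cells, against 75.9 and 85.5 CPM at 0 h, and fell by 0.82 ± 0.13 (edgeR, adjusted p = 0.00124). In PAF1-AID cells the DDX10 change was -0.24 ± 0.13 (edgeR, adjusted p = 0.283). MYBBP1A, a nucleolar MYB-binding protein, DDX21 and DDX18, both nucleolar helicases, changed by -0.32, -0.30 and -0.20 in SPT6-AID cells and by -0.17, -0.14 and -0.19 in PAF1-AID cells, with none called.

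The proteins of the modification particles and the abundant nucleolar proteins were not called at 6 h in either line, 0 of 10 genes by edgeR or DESeq2 and 0 at an unadjusted p under 0.05. Over all genes edgeR called 16.4% lower and 8.76% higher in SPT6-AID cells, and 6.7% and 4.2% in PAF1-AID cells. With 10 genes a count of 0 cannot be set apart from these shares. At an unadjusted p under 0.05 were 7557 and 5308 of all 20791 genes in SPT6-AID and PAF1-AID cells. FBL, the methyltransferase of the box C/D particles (GRCh38 chr19:39834458-39846414, minus strand), had 211 and 272 CPM at 0 h, 214 and 300 CPM at 2 h, and 215 and 342 CPM at 6 h in SPT6-AID cells. Its groups overlapped at every time and the change at 6 h was 0.21 ± 0.26. The scaffold proteins NOP56 and NOP58 changed by 0.18 ± 0.24 and 0.03 ± 0.19. In PAF1-AID cells FBL, NOP56 and NOP58 had 0.23, 0.41 and -0.05.

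Of the box H/ACA proteins the pseudouridine synthase DKC1 changed by -0.37 ± 0.17, GAR1 by -0.43 ± 0.24, NOP10 by 0.06 ± 0.24 and NHP2 by 0.38 ± 0.18 in SPT6-AID cells. NHP2 shares 27.4% of its exonic bases with a gene on the opposite strand. In PAF1-AID cells these genes had -0.22, -0.39, 0.16 and 0.29. None of these values passed the test.

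NCL, or nucleolin, was the highest of the 51 genes per kilobase in every group. It had 2201 and 2843 CPM at 0 h, 2247 and 2829 CPM at 2 h, and 2333 and 3182 CPM at 6 h in SPT6-AID cells. The groups overlapped and the 6 h change was 0.13 ± 0.20, with 0.30 ± 0.20 in PAF1-AID cells. NPM1, or nucleophosmin, changed by 0.24 ± 0.29 and 0.27 ± 0.29, and NOLC1, a snoRNP chaperone, by -0.06 ± 0.14 and 0.28 ± 0.14, in SPT6-AID and PAF1-AID cells. NPM1 has many processed pseudogenes, so its reads may be split. Under fly scaling the median of the box C/D genes changed sign in SPT6-AID cells, -0.29 in place of 0.18, as did that of NCL, NPM1 and NOLC1, -0.33 in place of 0.13, so no direction is given for these genes.

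**Figure D3:**
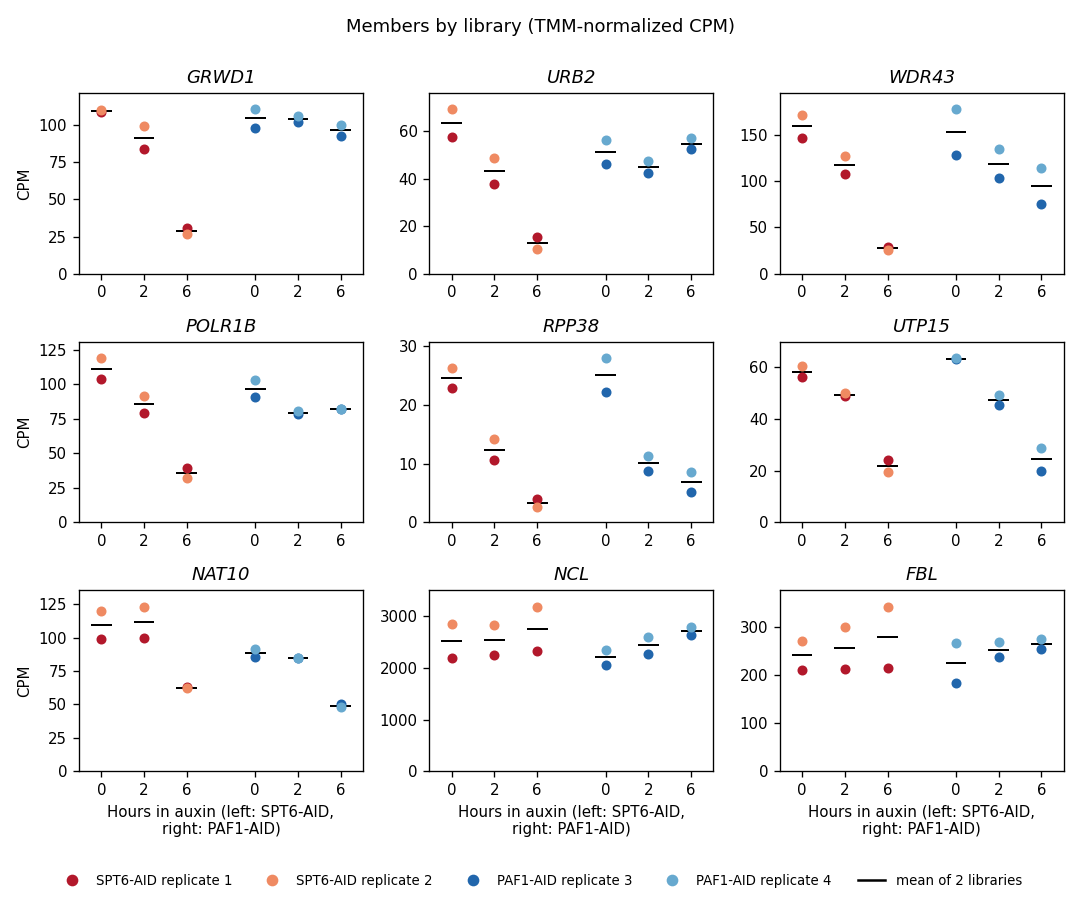
TMM-normalized CPM (linear axes from 0) of 9 genes in each library against hours in auxin, with SPT6-AID cells on the left of each panel and PAF1-AID cells on the right; points are libraries and lines the mean of 2. GRWD1, URB2 and POLR1B are lowest in the SPT6-AID libraries at 6 h, where GRWD1 is at 31.1 and 26.8 CPM, while UTP15 and NAT10 are low at 6 h in both lines.

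The difference between the lines was tested directly at 6 h. The SPT6-AID response minus the PAF1-AID response was called for 9 of the 51 genes (17.6%), all more negative in SPT6-AID cells, where 3.12% of all genes tested were. They were URB2 (-2.39 ± 0.30), WDR43 (-1.83 ± 0.32), GRWD1 (-1.81 ± 0.18), POLR1B (-1.40 ± 0.20), NOB1 (-1.16 ± 0.22), POLR1C (-1.14 ± 0.26), RRP1B (-0.90 ± 0.21), UTP23 (-0.87 ± 0.20) and WDR36 (-0.75 ± 0.17). A direct difference was not called for RPP38, UTP15, NAT10 or UTP18, the genes that fell in both lines.

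The count of 9 depended on single libraries. Without SPT6-AID 0h replicate 2, PAF1-AID 0h replicate 3 or PAF1-AID 6h replicate 4 it was 2, and without SPT6-AID 6h replicate 2 it was 3. Without SPT6-AID 0h replicate 1 or PAF1-AID 6h replicate 3 it was 4, and without PAF1-AID 2h replicate 3, PAF1-AID 2h replicate 4 or PAF1-AID 0h replicate 4 it was 5. URB2 and GRWD1 were called in all 12 leave-outs.

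Starting level and gene structure were not used to choose the genes. Per kilobase of transcript, the 25 that fell at 6 h had a median of 19.1 CPM in SPT6-AID cells at 0 h, against 39.6 CPM for the 26 not called. The baseline of that line enters the fold change, so the level was also taken from PAF1-AID cells at 0 h, which do not enter it. By that level, 14 of the 20 lowest genes fell, with a median change of -0.72, and 5 of the 20 highest, with a median of -0.20. Of all genes tested 16.4% fell, and the relation with level was not computed over them. The lowest of the 20 is NOP2, whose values are uncertain. Across the 51 genes Pearson's r between the log level and the change was 0.39 and Spearman's rho 0.55, a description only, since genes are not independent replicates and a gene's level also sets its precision.

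The median genomic span was 36532 bases for the 25 genes that fell, against 17233 bases for the other 26, and the median number of exons 13, against 15. Over the 51 genes r between log span and the change was -0.20, beside -0.14 over the 13663 protein-coding genes tested, and r for the number of exons was 0.14. The genes that fell ran from UTP3, with 1 exon, to UTP20, with 62.

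**Figure D4:**
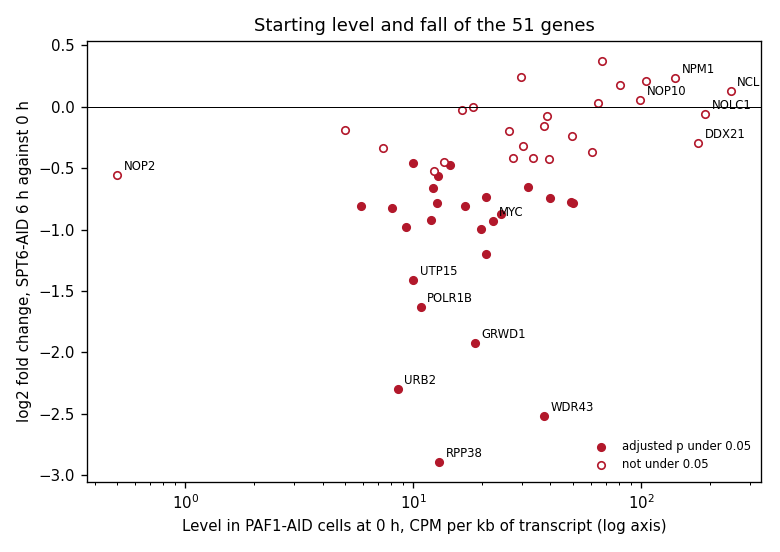
Log2 fold change in SPT6-AID cells at 6 h against 0 h of each of the 51 genes, plotted against its level in PAF1-AID cells at 0 h (CPM per kilobase of transcript, log axis); filled points passed an adjusted p under 0.05. Of the 20 genes with the lowest level 14 are filled, and of the 20 with the highest level 5 are, where 16.4% of all genes tested fell.

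Promoters of 40 of the 51 genes were found in RefSeq's GRCh38.p14 table, as 250 bases before to 50 after the start. The E-box CACGTG, which reads the same on both strands, was present in 14 of the 40 (35%), against 9.14% of the 16816 tested genes with a promoter in the table and 7.26% of all 35116 promoters. It was in 5 of the 19 genes that fell in SPT6-AID cells and had a promoter (26.3%), against 9 of the 21 not called (42.9%). The ETS-type motif CCGGAAGT, searched on both strands, was in 17.5% of the 40 and in 6.74% of the tested genes. The stretches below run from 70 bases before to 30 bases from the start, with the E-box in capitals. All are examples with the E-box near the start, from genes that fell (WDR43, NAT10, UTP20) and genes not called (RRP9, FBL). They lie at chr2:28894597-28894696 (plus strand), chr11:34105559-34105658 (plus), chr12:101280035-101280134 (plus), chr3:51941875-51941974 (minus) and chr19:39846350-39846449 (minus).
WDR43: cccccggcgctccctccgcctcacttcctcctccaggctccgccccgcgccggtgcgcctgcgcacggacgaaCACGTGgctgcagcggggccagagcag
NAT10: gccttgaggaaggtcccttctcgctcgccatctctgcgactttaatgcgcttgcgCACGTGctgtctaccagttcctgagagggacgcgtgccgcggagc
UTP20: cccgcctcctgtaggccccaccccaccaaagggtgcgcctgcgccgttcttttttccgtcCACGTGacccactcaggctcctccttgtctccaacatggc
RRP9: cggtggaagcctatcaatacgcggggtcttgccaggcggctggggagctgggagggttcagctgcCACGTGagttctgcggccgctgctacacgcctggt
FBL: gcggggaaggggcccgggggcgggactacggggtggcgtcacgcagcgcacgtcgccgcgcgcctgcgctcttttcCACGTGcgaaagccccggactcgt
Counting the RefSeq start as 0, the E-box begins at 3 in WDR43, -15 in NAT10, -10 in UTP20, -5 in RRP9 and 6 in FBL. GENCODE, the source of the gene positions above, starts WDR43 at 28894643 and FBL at 39846414, so distances from its starts differ. In other genes the E-box lies farther off, as at 28 in LTV1, which fell, and at -241 in UTP14A, not called. A match describes the sequence and does not show that a factor binds there. WDR43 had the second-largest fall at 6 h of SPT6 depletion and FBL was not called, with the motif within 10 bases of the RefSeq start in both. Any part of the motif in the changes was not tested.

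Other genes of ribosome biogenesis were taken from a further list of 112 names, also chosen with earlier results known, of which 105 were tested. Of these, 44 (41.9%) fell at 6 h of SPT6 depletion, where 16.4% of all genes tested did, with a median of -0.38. They included SURF6 (-2.08 ± 0.20), a nucleolar matrix protein, NGDN (-2.01 ± 0.21), IMP3 (-1.51 ± 0.15) and MPHOSPH10 (-1.44 ± 0.14), which belong to the small-subunit processome. At 6 h of PAF1 depletion 12 (11.4%) fell and 7 (6.67%) rose, where 6.7% and 4.2% of all genes did, with a median of 0.08. NOL11 (-0.86 ± 0.13), ESF1 (-0.77 ± 0.15) and NOC3L (-0.73 ± 0.13) fell, and RRP8, an rRNA methyltransferase, rose by 1.137 ± 0.17 (edgeR, adjusted p = 0.00332).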

How the data were processed

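The submitters' processing notes name the tools cutadapt 1.14, STAR 2.7.5 and featureCounts 2.0.0. They name as builds GRCh38 for human and BDGP6 for fly. Per the labels' protocols, libraries were made from poly(A) RNA with a directional kit. The deposited table holds the authors' whole-number read counts per gene for the 12 libraries, not normalized, with gene and transcript lengths; the strand setting and annotation release were not given in the sources used here.

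The 51 genes, the other lists and the named genes (by role, up to 3 with the smallest p in SPT6-AID and up to 2 in PAF1-AID cells at 6 h, and every gene whose response differed between the lines) were chosen with earlier results of these data known. Human genes passing filterByExpr (20791) were scaled by TMM and fitted as 6 group means over all 12 libraries with edgeR 4.0.16 (R 4.3.3). Its quasi-likelihood test gave 8 comparisons, with Benjamini-Hochberg adjustment over all genes. SE is the absolute log2 fold change over the square root of F. Replicates differed beyond sampling noise, with chi-square per degree of freedom of 35.0 to 68.4 within groups. The fit was also run on simulated counts drawn independently for each library, so that run does not cover libraries that deviate together. Alternatives were DESeq2 1.42.0, other scalings (17807 fly gene rows among them), filters, each line alone, a replicate block and leaving out each library. Positions came from GENCODE on GRCh38, and promoters from RefSeq on GRCh38.p14.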

Additional observations from a re-analysis of the deposited data

Results flagged for a closer look

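For 9 genes the response at 6 h differed between the lines by a direct test, the SPT6-AID response minus the PAF1-AID response, all adjusted over all genes tested. Each is given with edgeR's adjusted p. URB2 had a difference of -2.39 (adjusted p = 0.00784), GRWD1 of -1.81 (adjusted p = 0.00338) and WDR43 of -1.83 (adjusted p = 0.0195). POLR1B had -1.40 (adjusted p = 0.0115), POLR1C -1.14 (adjusted p = 0.0387) and NOB1 -1.16 (adjusted p = 0.0239). RRP1B had -0.90 (adjusted p = 0.0461), UTP23 -0.87 (adjusted p = 0.0401) and WDR36 -0.75 (adjusted p = 0.0371). Of the 9 calls 1 was kept with total fly counts as library sizes. With total human counts 5 were kept, and 5 with a mean of at least 1 CPM. The calls of genes other than URB2 and GRWD1 also depended on single libraries, those of UTP23, RRP1B, WDR36 and POLR1C most of all. In SPT6-AID cells the 6 h libraries of all 9 lay below both 0 h libraries. In PAF1-AID cells they lay above both 0 h libraries for NOB1, POLR1C and RRP1B, below both for WDR43 and POLR1B, and overlapped for URB2, GRWD1, UTP23 and WDR36. These positions are in TMM-normalized CPM. With fly scaling the median of all genes at 6 h of PAF1 depletion was -0.37, so NOB1, POLR1C and RRP1B are not given as higher there.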

How the results depend on the processing

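No gene called with the settings of the report changed sign under any alternative run. The numbers of the 51 genes called were otherwise as follows, and the cause was not tested except where the scaling or the number of libraries sets it by construction. With total fly counts as library sizes 38 were called at 6 h of SPT6 depletion, 14 at 6 h of PAF1 depletion, 29 and 0 from 2 to 6 h in SPT6-AID and PAF1-AID cells, and 1 for the difference between the lines at 6 h. In the same order 6800, 3161, 3782, 0 and 16 of the 20791 genes tested were called, against 5230, 2267, 3273, 182 and 778 with TMM. With total human counts 1 was called from 2 to 6 h in PAF1-AID cells and 5 for the difference at 6 h, and with a mean of at least 1 CPM 5 for that difference. Over all genes these runs called 79 and 223 of 20791, and 457 of 14895. Without a filter on low counts 2 were called at 2 h of SPT6 depletion, 1 at 2 h of PAF1 depletion and 1 for the difference at 2 h, and the DESeq2 Wald test called 3 and 1 at 2 h in SPT6-AID and PAF1-AID cells. Over all genes the run without a filter called 380, 274 and 34 of 38744, and DESeq2 509 and 270 of 20791. Each line alone gave 11 and 1 from 2 to 6 h in SPT6-AID and PAF1-AID cells, where 1910 and 42 of all 20791 genes were called. Leaving out a library in turn gave 15 to 25 at 6 h and 9 to 19 from 2 to 6 h in SPT6-AID cells, 1 to 5 and 0 to 2 over the same intervals in PAF1-AID cells, 2 to 7 for the difference at 6 h, and 0 to 0 for the comparisons at 2 h. MYC at 6 h of SPT6 depletion missed the threshold with DESeq2 size factors, a mean of at least 1 CPM and the SPT6-AID line alone.

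Same-numbered libraries of a line deviated together (r of 0.49 to 0.66 between times, over genes), but with 2 numbers per line this is a hint from the data and the labels do not say that a number marks a shared culture. With a replicate block 8 genes were called after 2 h of SPT6 depletion, all lower, and 38 after 6 h, 36 lower and 2 higher. Over all 20791 genes tested the block called 1613 at 2 h and 10683 at 6 h in that line, against 114 and 5230 without it. After PAF1 depletion the block gave 7 at 2 h, 5 lower and 2 higher, and 24 at 6 h, 14 lower and 10 higher. Of all genes tested 1452 and 7958 were called there, against 31 and 2267 without the block. From 2 to 6 h the block gave 36 in SPT6-AID cells, 35 lower and MYC higher, and 17 in PAF1-AID cells, 14 lower and 3 higher. Over the same interval 8466 and 4172 of all genes were called with the block. For the difference at 2 and 6 h the block gave 1 (MYC) and 26, all lower, where 240 and 4513 of all genes were called. The rise in calls with the block was thus not particular to the 51 genes. With the block MYC passed in edgeR at 2 and 6 h of SPT6 depletion (adjusted p = 6.96e-07 and 9.815e-06). It also passed at 2 and 6 h of PAF1 depletion (0.0476 and 0.0188) and for the difference at 2 and 6 h (-1.09 and -0.51, adjusted p = 0.00136 and 0.0326). NOP2, at 1.135 to 3.12 CPM, and RPP38 in SPT6-AID cells at 6 h, at 3.98 and 2.55 CPM, had the lowest levels of the 51 genes.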

Other observations

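MYC's partners and antagonists were measured too. Of 12 genes of the MYC network, 4 (33.3%) fell and 1 (8.33%) rose at 6 h of SPT6 depletion, where 16.4% and 8.76% of all genes tested did. MGA, a MAX-binding repressor, fell by 1.68 ± 0.23 on the log2 scale (edgeR, adjusted p = 0.000675), MLX by 0.76 ± 0.12 (edgeR, adjusted p = 0.0016), and MAX, the partner of MYC, by 0.62 ± 0.11 (edgeR, adjusted p = 0.00299). MXD1, which competes with MYC for MAX, rose by 1.39 ± 0.19 (edgeR, adjusted p = 0.000695). At 6 h of PAF1 depletion MGA (-1.23 ± 0.23) and MLX (-0.52 ± 0.12) fell and MXD3 (0.81 ± 0.22) rose, 16.7% and 8.33% of the 12, where 6.7% and 4.2% of all genes did.

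Of 17 known MYC targets outside ribosome biogenesis, 4 fell at 6 h of SPT6 depletion, namely CDC25A (-1.59 ± 0.26), a cell cycle phosphatase, TFAP4 (-1.57 ± 0.22), a transcription factor, EIF4E (-1.02 ± 0.28), the cap-binding translation factor, and RIOX2 (-0.97 ± 0.15). That is 23.5%, where 16.4% of all genes tested fell, so with 17 genes the count is near that share. The median of the 17 was 0.16, beside 0.04 over all genes. At 6 h of PAF1 depletion TFAP4 (-1.36 ± 0.22) and RIOX2 (-0.55 ± 0.15) fell, 11.8% of the 17. Over all genes 6.7% did, so this count too is near the share.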
